A study of Mus musculus with 12 samples.

Results

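Of 54146 gene records in the count tables, 10 genes with more counts in pressure-overloaded hearts of Nron knockout mice than in either group of wild-type hearts are described here. They are Rab6b, Igfals, Scd4, Cubn, Adh1, Cngb3, Arhgef19, Gm15446, E330017L17Rik and Sox30. The genes were chosen by their counts in these libraries, so their levels in the knockout against both wild-type groups are given as a description and carry no test. All 10 symbols matched a single record each, and all 10 were among the 15477 genes that passed the filter on low counts. E330017L17Rik, Gm15446 and Sox30 passed that filter through the knockout libraries alone.

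Poly(A) RNA of mouse hearts was sequenced in 12 libraries, 4 in each of 3 groups, each prepared from 250 ng of total RNA. The wild-type hearts came from mice after sham surgery (Sham WT) or after transverse aortic constriction (TAC WT), an operation that narrows the aortic arch so that the heart pumps against a higher pressure, and the knockout hearts came from constricted mice that lack Nron, a long noncoding RNA (TAC KO). All hearts were taken 6 weeks after surgery, and knockout hearts after sham surgery were not analysed here. Strain, age, sex and the way in which Nron was disrupted are not in the labels. Neither is whether each library is a different mouse, so the p-values reflect only how much these libraries vary, which may be technical.

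Library totals ran from 26288519 to 35945770 counts, and levels are given as CPM, the counts scaled to the library total after TMM scaling. Nron, on chromosome 2, had 0 counts in all 12 libraries, wild type included, so the counts do not check the knockout label. Cardiomyocyte markers summed to 62440 to 80120 CPM in the 12 libraries, and heart is the labelled tissue. In bulk heart RNA, fewer cells of a type and less RNA per cell cannot be told apart.

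A gene that is off in wild type and on in the knockout would have no wild-type counts, and 9 of the 10 genes had some. Of these, 8 had a count in every one of the 12 libraries. In 7 genes every TAC KO library lay above all 8 wild-type libraries, a separation that 5.93% of tested genes showed. Scd4, Adh1 and Cngb3 overlapped Sham WT. They are therefore called genes higher in TAC KO, and E330017L17Rik was the single tested gene with 0 counts in all 8 wild-type libraries and counts in the knockout. Of all tested genes, 15.7% were called higher in TAC KO than in TAC WT at an adjusted p under 0.05, and 12.8% were called higher than in Sham WT. The 10 genes were chosen on these same comparisons, so their own calls there are not counted.

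The 10 genes belong to no single pathway. Rab6b is a small GTPase of the Golgi known mainly from neurons, and Arhgef19 is a guanine nucleotide exchange factor, a class of proteins that load small GTPases with GTP. Igfals encodes the acid-labile subunit, a protein made mainly by the liver that holds insulin-like growth factors and their binding proteins in long-lived complexes in blood. Scd4 is a stearoyl-CoA desaturase known from heart, an enzyme class that puts a double bond into saturated fatty acids. Cubn encodes cubilin, an endocytic receptor for intrinsic factor with vitamin B12 and for filtered proteins, best known from gut and kidney. Adh1 is a class I alcohol dehydrogenase that oxidises ethanol and retinol. Cngb3 is a subunit of the cyclic nucleotide-gated channel of cone photoreceptors, and Sox30 is a SOX transcription factor known from the testis. Gm15446 is annotated as protein coding and E330017L17Rik as a long intergenic noncoding RNA, and no function is given for either here. Nron itself is known as a noncoding RNA that holds the transcription factor NFAT in the cytoplasm, and NFAT is a mediator of cardiac hypertrophy downstream of calcineurin.

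Because genes that are high in the same libraries invite a look at their start sites, the sequence before the RefSeq start is shown for 4 members. These are the 3 with the fewest wild-type counts and Cubn, the member on the chromosome of Nron. Each is printed 5′ to 3′ on the strand of its gene from RefSeq (GRCm38.p6), up to 250 bases and only where free of annotated exons. The window of Gm15446 lies inside the annotated span of the gene whose counts are given (chr5:109923400-109943936), and not before it. Capitals mark matches on either strand to 3 motifs: the core NFAT motif GGAAA, the CCAAT box, which reads ATTGG when it lies on the other strand, and the GC box GGGCGG, which reads CCGCCC when it lies on the other strand.
Cubn, chr2:13491877-13492126, minus strand: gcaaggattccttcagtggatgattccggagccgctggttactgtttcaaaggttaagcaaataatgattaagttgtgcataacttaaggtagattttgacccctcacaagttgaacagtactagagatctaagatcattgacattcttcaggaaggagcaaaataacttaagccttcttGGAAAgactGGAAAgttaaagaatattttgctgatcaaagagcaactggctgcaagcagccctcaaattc
Gm15446, chr5:109933313-109933562, plus strand: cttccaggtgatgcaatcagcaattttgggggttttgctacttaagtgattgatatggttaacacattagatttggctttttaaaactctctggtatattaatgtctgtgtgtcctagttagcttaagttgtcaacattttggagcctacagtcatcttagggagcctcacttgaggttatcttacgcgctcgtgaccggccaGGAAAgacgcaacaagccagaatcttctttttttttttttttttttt
E330017L17Rik, chr4:129905976-129906215, plus strand: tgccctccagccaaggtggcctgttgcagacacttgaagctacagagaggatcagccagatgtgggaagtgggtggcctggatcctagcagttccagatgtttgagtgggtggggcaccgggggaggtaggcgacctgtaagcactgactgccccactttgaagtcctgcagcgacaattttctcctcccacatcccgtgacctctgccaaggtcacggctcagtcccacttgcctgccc
Sox30, chr11:45980060-45980309, plus strand: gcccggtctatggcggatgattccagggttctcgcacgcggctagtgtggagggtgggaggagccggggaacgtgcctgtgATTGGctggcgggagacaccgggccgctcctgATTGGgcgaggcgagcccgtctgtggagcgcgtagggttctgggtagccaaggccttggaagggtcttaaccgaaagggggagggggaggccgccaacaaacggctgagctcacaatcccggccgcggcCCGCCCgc

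Cubn held the NFAT core in 2 places and Gm15446 in 1, while the windows of E330017L17Rik and Sox30 held none. Sox30 instead held a pair of CCAAT boxes and a GC box, and E330017L17Rik held none of the 4 motifs searched. RefSeq start windows were found for 9 of the 10 genes, with 11 windows in all. Those of Rab6b, Igfals, Adh1, Arhgef19 and Gm15446 lie inside the annotated spans of their genes, and not before them. That of Scd4 also lies inside its gene, except for its first 16 bases. GGAAA was in 6 of the 11 windows and in 55.6% of 32851 mouse promoter windows of the same length. CCAAT was in 3 and in 33.8% of all windows, GGGCGG in 5 and in 32.7%, and TATAAA in none and in 12.4%. All 4 motifs were searched on both strands, and a match is a string of letters, not a shown binding site.

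E330017L17Rik (ENSMUSG00000086369.7, chr4:129906216-129919787, plus strand) had 0 counts in each of the 8 wild-type libraries. The 4 TAC KO libraries held 29, 77, 54 and 36 counts, or 0.996, 2.48, 1.54 and 1.03 CPM. The floor of 3 counts corresponds to 0.082 to 0.11 CPM in a wild-type library, so every knockout library stood well above what the wild-type zeros allow. Against a floor of 3 counts over the whole group, the transcript was at least 65.3-fold higher than in TAC WT and at least 65.6-fold higher than in Sham WT. The floor covers counting error only.

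Gm15446 (ENSMUSG00000090015.8, chr5:109923400-109943936, plus strand) was near 0 in wild type, with 2, 0, 2 and 4 counts in the Sham WT libraries and 4, 1, 1 and 1 in the TAC WT libraries. The TAC KO libraries held 37, 103, 105 and 50 counts, or 1.27, 3.31, 2.99 and 1.43 CPM. The groups were far apart, and the knockout libraries themselves split into a lower pair and a higher pair. The ratio of scaled counts was 42.1 against TAC WT (95% counting interval 20.2 to 105.7) and 37.0 against Sham WT (18.6 to 86.6). The fitted log2 difference from TAC WT was 5.30 (SE 0.53), and 5.98 without TAC WT 1, the library with 4 of the 7 counts of its group. Against Sham WT it was 5.11, and 5.74 without Sham WT 4.

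The counts of Gm15446 come with a limit, since its transcript is 94.7% identical to that of Zfp932 over 89.2% of its length and reads could be split between them. Zfp932, a zinc finger gene at chr5:109996521-110010411, was at 3.77 ± 0.712 CPM in TAC KO, against 3.30 ± 0.243 in TAC WT and 3.17 ± 0.424 in Sham WT (SD, n = 4). Its mean was thus not lower where that of Gm15446 was higher. Gm15446 was the only member with another gene at 90% identity or more over 50% of a transcript.

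Sox30 (ENSMUSG00000040489.5, chr11:45980310-46017994, plus strand) had 8, 6, 6 and 3 counts in Sham WT and 4, 3, 3 and 10 in TAC WT. The TAC KO libraries held 23, 25, 18 and 28 counts, or 0.790, 0.804, 0.513 and 0.802 CPM. The lowest knockout library still lay above the highest wild-type library, TAC WT 4 at 0.367 CPM, but at fewer than 30 counts a library the level is known only roughly. The ratio of scaled counts was 4.70 against TAC WT (95% counting interval 2.88 to 8.04) and 4.11 against Sham WT (2.58 to 6.79). The fitted log2 difference from TAC WT was 2.19 (SE 0.38), and 2.85 without TAC WT 4.

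Rab6b (ENSMUSG00000032549.7, chr9:103111787-103185276, plus strand) had 16, 76, 34 and 43 counts in Sham WT and 19, 8, 23 and 47 in TAC WT. In TAC KO it had 407, 377, 422 and 507 counts, or 13.98, 12.12, 12.03 and 14.51 CPM. The wild-type libraries varied several-fold among themselves and the knockout libraries hardly at all, with a coefficient of variation of 9.69% in TAC KO against 81.7% in TAC WT and 56.7% in Sham WT. The mean was 13.2 ± 1.28 CPM in TAC KO against 0.793 ± 0.648 in TAC WT and 1.3 ± 0.738 in Sham WT (SD, n = 4). The fitted log2 difference was 4.11 (SE 0.40) from TAC WT, 4.75 without TAC WT 4, and 3.34 (SE 0.37) from Sham WT.

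Igfals (ENSMUSG00000046070.8, chr17:24865997-24882010, plus strand) had 30, 67, 68 and 54 counts in Sham WT and 40, 37, 34 and 7 in TAC WT. In TAC KO it had 221, 245, 319 and 277 counts, or 7.59, 7.88, 9.09 and 7.93 CPM. As for Rab6b, the 4 knockout libraries were close together and far above the rest. The mean of 8.12 ± 0.663 CPM compared with 0.873 ± 0.415 in TAC WT and 1.68 ± 0.528 in Sham WT (SD, n = 4), which gave fitted log2 differences of 3.18 (SE 0.28) and 2.27 (SE 0.26).

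Cubn (ENSMUSG00000026726.10, chr2:13276338-13491813, minus strand) had 33, 25, 31 and 24 counts in Sham WT, and 34, 67, 49 and 38 in TAC WT. In TAC KO it had 191, 183, 187 and 181 counts, or 6.56, 5.88, 5.33 and 5.18 CPM. Its levels stepped up from Sham WT over TAC WT to TAC KO, with means of 0.866 ± 0.11, 1.46 ± 0.465 and 5.74 ± 0.626 CPM (SD, n = 4). The fitted log2 difference was 1.98 (SE 0.19) from TAC WT and 2.72 (SE 0.20) from Sham WT. An antisense transcript, Gm13270, shares 2.46% of the exon bases of Cubn and never exceeded 6 counts in a library.

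Arhgef19 (ENSMUSG00000028919.11, chr4:141239499-141257564, plus strand) was the member with the highest level and was clearly present in wild type. It had 607, 719, 681 and 502 counts in Sham WT, 637, 591, 722 and 385 in TAC WT, and 1251, 1860, 1868 and 1599 in TAC KO. In CPM the knockout libraries were at 43.0, 59.8, 53.2 and 45.8, and the highest of the wild-type libraries was at 21.3. Arhgef19 was thus raised from an existing level and not switched on, with fitted log2 differences of 1.5 (SE 0.12) from TAC WT and 1.4 (SE 0.12) from Sham WT.

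Scd4 (ENSMUSG00000050195.8, chr19:44333092-44346743, plus strand) followed another course. The Sham WT libraries were at 2.94, 7.07, 4.97 and 7.70 CPM and the TAC WT libraries at 1.09, 1.82, 1.83 and 0.845, while those of TAC KO were at 3.64, 9.29, 10.8 and 9.13. Raw counts ran from 106 to 379 in TAC KO, from 23 to 62 in TAC WT and from 99 to 247 in Sham WT. The knockout libraries lay above all TAC WT libraries, but TAC KO 1 lay inside the range of Sham WT. In the fit the log2 difference was 2.55 (SE 0.36) from TAC WT and 0.55 (SE 0.32) from Sham WT.

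Cngb3 (ENSMUSG00000056494.7, chr4:19280850-19510623, plus strand) had the same order of groups at a lower level. The TAC KO libraries were at 2.99, 2.32, 2.25 and 1.46 CPM, those of TAC WT at 0.547, 0.493, 0.974 and 0.257, and those of Sham WT at 1.73, 1.35, 1.14 and 1.21, from 7 to 87 counts a library. TAC KO 4 lay inside the Sham WT range and the other 3 knockout libraries above it. As fitted, TAC KO was higher on the log2 scale by 1.95 (SE 0.30) than TAC WT and by 0.72 (SE 0.27) than Sham WT.

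Adh1 (ENSMUSG00000074207.10, chr3:138260991-138290698, plus strand) was the most variable member in the knockout. The TAC KO libraries were at 25.9, 6.43, 14.5 and 12.5 CPM, those of TAC WT at 3.25, 5.36, 3.16 and 3.53, and those of Sham WT at 8.44, 6.04, 6.51 and 4.36, from 96 to 753 counts a library. TAC KO 2 fell within the Sham WT range, while TAC KO 1 held the highest value of all. Adh1 gave a fitted log2 difference of 1.95 (SE 0.34) from TAC WT and 1.22 (SE 0.32) from Sham WT. An antisense gene, Gm16559, shares 6.09% of the exon bases of Adh1.

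**Figure D1:**
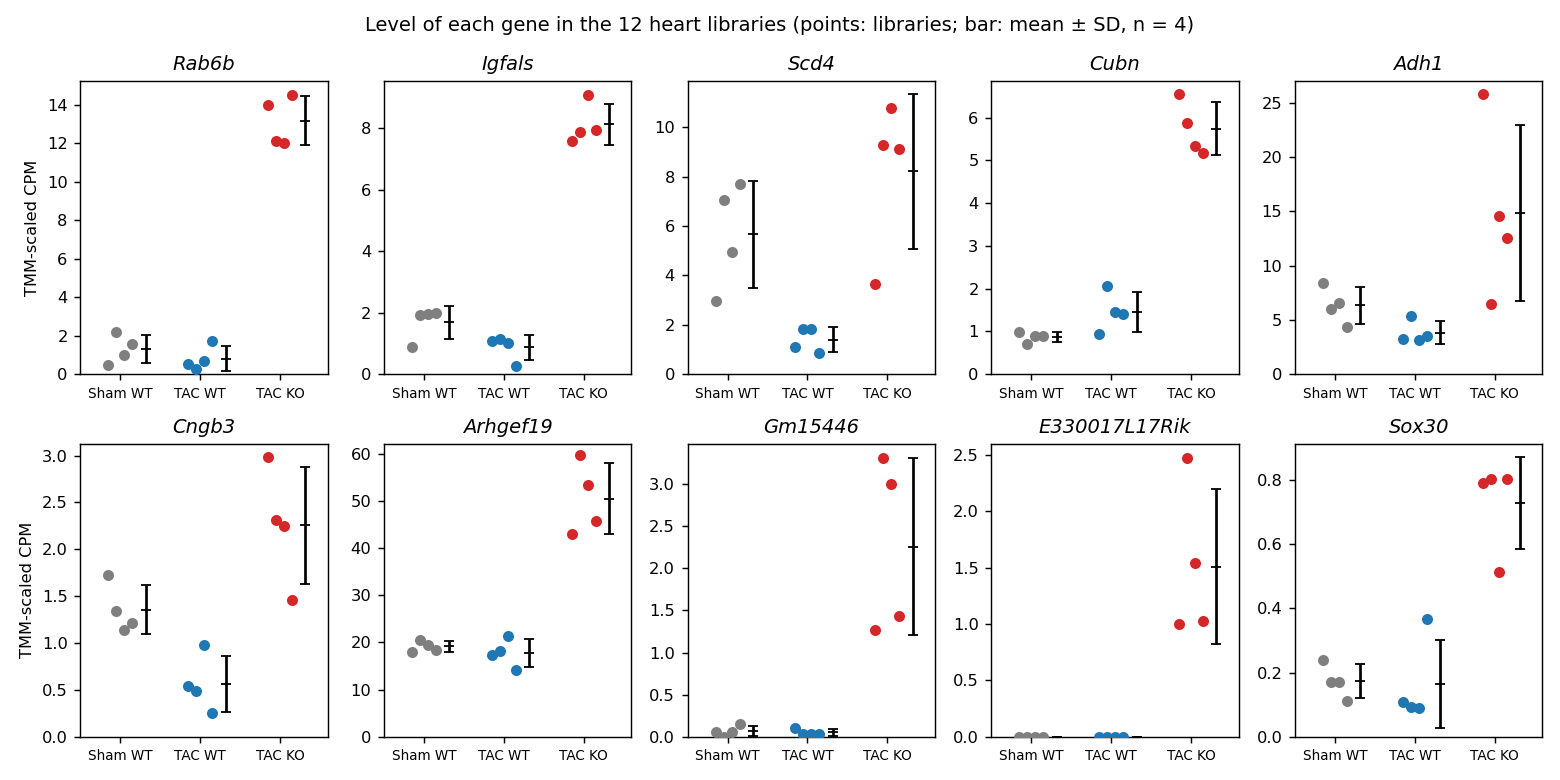
Level of each of the 10 genes in TMM-scaled CPM (vertical axis, own scale for each gene) in the 4 libraries of Sham WT (grey), TAC WT (blue) and TAC KO (red), with a bar for the mean ± SD (n = 4). E330017L17Rik is at 0 in all 8 wild-type libraries, Arhgef19 is at 14.2 to 21.3 CPM there, and Scd4, Adh1 and Cngb3 in TAC KO overlap Sham WT.

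The response of the 10 genes to constriction in wild-type hearts was not itself a criterion of their choice and was tested with edgeR over all 15477 genes. The same wild-type libraries served both, and the choice favoured low values in them, so these p-values are not independent of the choice. Scd4 and Cngb3 fell and Cubn rose, against 10% of tested genes that passed as lower and 9.67% that passed as higher in TAC WT than in Sham WT. Scd4 fell from 5.67 ± 2.16 to 1.40 ± 0.504 CPM (SD, n = 4), a log2 difference of -2.0 (SE 0.37, edgeR adjusted p = 0.00175), and all 4 TAC WT libraries lay below all 4 Sham WT libraries. The call held under all 21 alternative analyses, with adjusted p up to 0.00868.

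Cngb3 fell from 1.36 ± 0.260 to 0.568 ± 0.299 CPM (SD, n = 4), a log2 difference of -1.23 (SE 0.31, edgeR adjusted p = 0.0133), again with no overlap. Its call also held under all 21 alternatives, with adjusted p between 0.00126 and 0.0469. Cubn rose by 0.75 on the log2 scale (SE 0.22, edgeR adjusted p = 0.0251), with 3 of the 4 TAC WT libraries above all Sham WT libraries. Its call rested on single libraries, since the adjusted p was 0.072 without Sham WT 2, 0.0531 without Sham WT 3 and 0.0682 without TAC WT 2, and it was 0.0919 with limma voom and quality weights.

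Among the other genes, Igfals stood at -0.91 on the log2 scale (SE 0.31, edgeR adjusted p = 0.0535), just short of the threshold, and it passed under 5 alternatives. It did so without Sham WT 1 (adjusted p = 0.017) and without TAC WT 2 (adjusted p = 0.0436). Adh1 was at -0.74 (adjusted p = 0.149; 0.0317 with no low-count filter and 0.029 with these 2 groups fitted alone) and Rab6b at -0.77 (adjusted p = 0.274) in the same fit. Rab6b passed without TAC WT 4, at -1.41 (adjusted p = 0.0427). Arhgef19 (-0.10, adjusted p = 0.586) did not pass either. Gm15446 and Sox30, with 0 to 4 and 3 to 10 counts a wild-type library, were tested here only because their knockout counts passed the filter, and nothing is read from the lack of a call. E330017L17Rik, at 0 in both groups, gave no value.

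**Figure D2:**
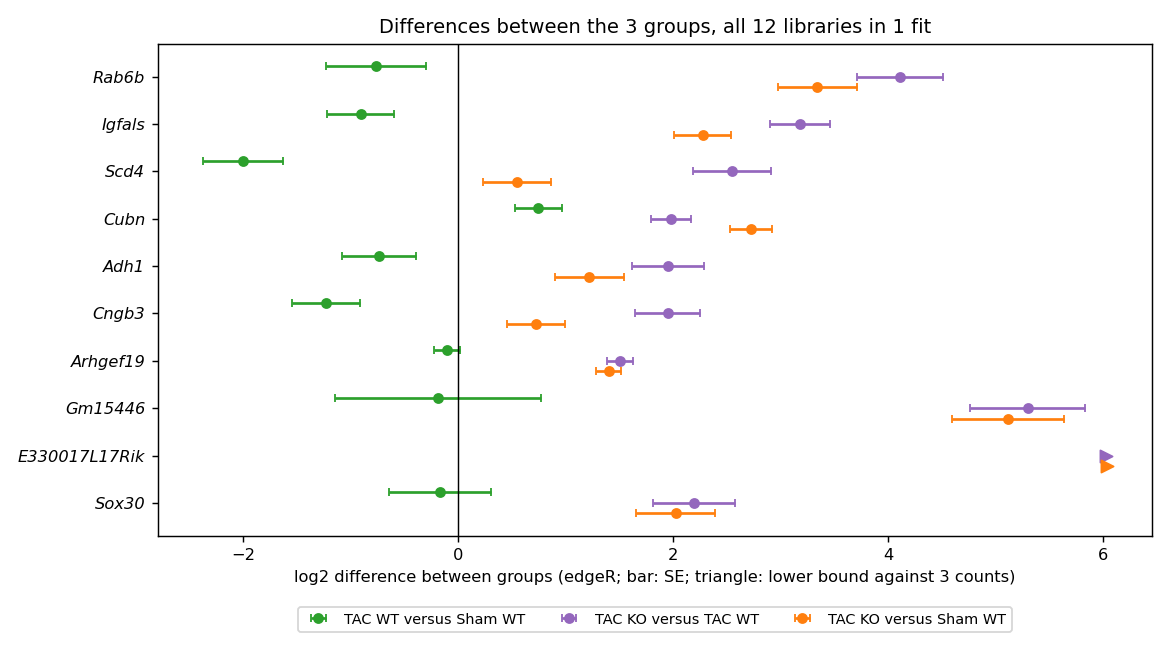
Fitted log2 difference (horizontal axis) of each gene between groups with its SE, for TAC WT against Sham WT (green), TAC KO against TAC WT (purple) and TAC KO against Sham WT (orange), with triangles for lower bounds. The green points, the single contrast that was not itself a criterion of the choice, lie lowest for Scd4 at -2.0 and highest for Cubn at 0.75. The choice favoured low values in both wild-type groups.

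Compared per kilobase of exon, the order of levels in TAC KO began with Arhgef19 at 11.9 ± 1.79 CPM per kilobase and Adh1 at 6.64 ± 3.64 (SD, n = 4). Rab6b at 2.62 ± 0.253, Igfals at 2.57 ± 0.209 and Scd4 at 2.18 ± 0.834 did not differ beyond their spread. E330017L17Rik followed at 1.14 ± 0.522, then Gm15446 at 0.596 ± 0.278, Cngb3 at 0.479 ± 0.133, Cubn at 0.384 ± 0.0419 and Sox30 at 0.243 ± 0.0477. From E330017L17Rik to Cubn, the libraries of each gene overlapped in range with those of the gene next in order, and all 4 values of Sox30 lay below those of Cubn. In Sham WT the order also began with Arhgef19, Adh1 and Scd4, at 4.51, 2.84 and 1.51 CPM per kilobase, whereas Rab6b was in the sixth place at 0.258.

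No knockout library was high for all 10 genes. TAC KO 1 was above the group mean for 5 genes, TAC KO 2 for 7, TAC KO 3 for 5 and TAC KO 4 for 3. TAC KO 1 had the highest Adh1, at 174.4% of the knockout mean, and the lowest Scd4, at 44.3%. TAC KO 2 had the highest E330017L17Rik and Gm15446 and the lowest Adh1. Rab6b, Igfals and Cubn varied little between the knockout libraries, with coefficients of variation of 9.69%, 8.16% and 10.9%, against 54.7% for Adh1.

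**Figure D3:**
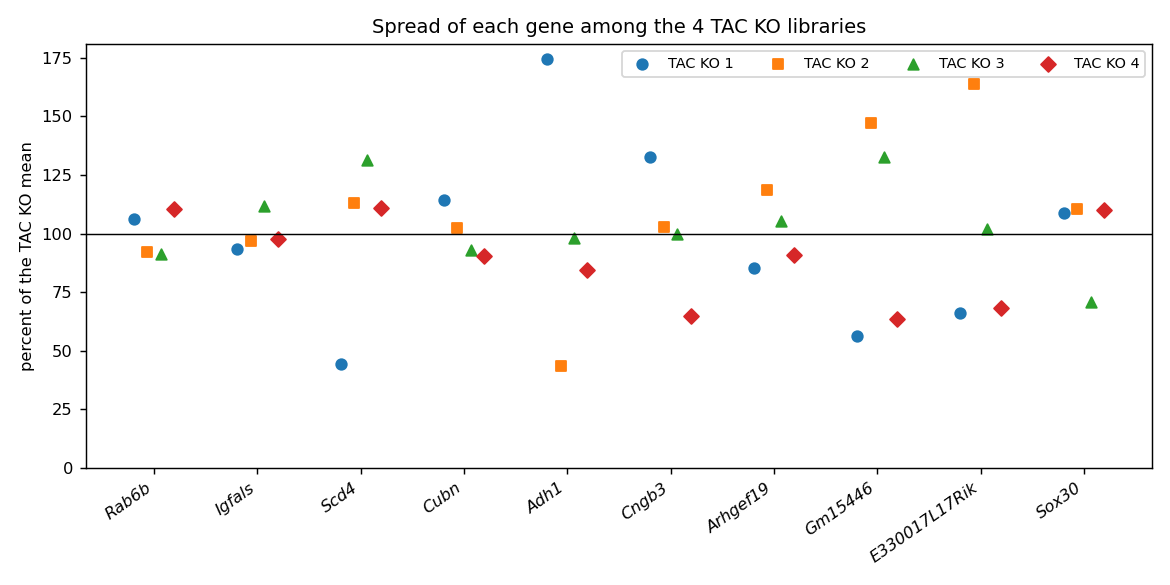
Level of each gene in the 4 TAC KO libraries as a percentage of their mean (vertical axis), with a symbol for each library and a line at 100. Adh1 and Scd4 stand out for TAC KO 1, at 174.4% and 44.3%, and E330017L17Rik and Gm15446 are highest in TAC KO 2.

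Over the 12 libraries all 45 pairs of the 10 genes correlated positively in log2(CPM + 0.5), with Pearson's r from 0.42 to 0.991 and a median of 0.784, which their choice by group would give. With each group's mean removed, the median r was -0.033 and 21 of the 45 pairs were above 0. The highest was between Gm15446 and E330017L17Rik, at 0.872, and the lowest between Igfals and Sox30, at -0.854. The value of 0.872 rests on the TAC KO libraries, since E330017L17Rik was at 0 in every wild-type library. All these correlations are descriptions over 12 libraries that share their depth and preparation. The members thus had group level in common, and most did not rise and fall together within groups.

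For each gene, the tested genes with the most similar course over the 12 libraries were listed among 11972 genes with a mean of at least 1 CPM. Tmem159 ranked first for E330017L17Rik (r = 0.988), and it was also among the 3 most similar to Gm15446. Its 4 TAC KO libraries spanned 28.97 to 37.71 CPM and the wild-type libraries 18.37 to 20.61 CPM. Tnni3k, a cardiac kinase gene, ranked first for Arhgef19 (r = 0.968). The ribosomal protein gene Rpl26 was among the 3 most similar to Rab6b, Arhgef19 and E330017L17Rik, at 5.14 to 7.61 CPM in the wild-type libraries and 50.7 to 93.7 CPM in TAC KO. Ribosomal protein genes have processed copies elsewhere in the genome, so that level is uncertain.

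Scd4 had other companions, namely Magix (r = 0.961), the acyl-CoA thioesterase Acot1 (r = 0.932) and the muscle fructose bisphosphatase Fbp2 (r = 0.923). Acot1 spanned 4.98 to 7.23 CPM in TAC KO, 1.58 to 2.74 CPM in TAC WT and 5.29 to 7.22 CPM in Sham WT, so that the knockout range covered the sham range, as Scd4 in part did. Cngb3 was most like Gmpr (r = 0.95), Igfals like Trappc2l (0.958) and Cubn like Atraid (0.975). Adh1 was most like Emc10 (0.962), Rab6b like Rnh1 (0.959) and Sox30 like Dmap1 (0.975). These likenesses are over 12 libraries and carry no test.

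Of 138 fixed genes from 8 families and pathways, 115 were tested and 38 passed in TAC KO against TAC WT, 18 as higher and 20 as lower. Over all tested genes 15.7% passed as higher and 17.3% as lower, which is about the share among these relatives. None of the 10 genes is among the 138. Of the 38, 23 kept their call under every alternative.

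Rab6b stood apart from its paralog Rab6a, which fell from 120.0 ± 7.84 CPM in TAC WT to 101.7 ± 7.94 in TAC KO (SD, n = 4; log2 -0.24, edgeR adjusted p = 0.013). Of 12 tested Rab6 GTPases and partners, Rab6a included, 6 fell and none rose, beside 17.3% and 15.7% of all tested genes, with a median log2 difference of -0.22 against -0.002 for all tested genes. They include the dynein adaptor Bicd2 (-0.29, adjusted p = 0.00152) and the golgin Golga4 (-0.45, adjusted p = 0.00213). Ric1 and Rgp1, which together activate Rab6, were at -0.34 (adjusted p = 0.0105) and -0.27 (adjusted p = 0.0128). With library trends in GC content and length removed, Ric1 no longer passed (-0.15, adjusted p = 0.119).

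In the insulin-like growth factor axis of Igfals, 4 of 14 tested genes rose and 2 fell, beside 15.7% and 17.3% of all tested genes. The receptor gene Igf1r fell from 48.5 ± 4.58 to 28.5 ± 1.71 CPM (SD, n = 4; log2 -0.77, edgeR adjusted p = 3.398e-05). Stc1, a stanniocalcin, fell by 1.02 on the log2 scale (adjusted p = 0.00172). The binding protein genes Igfbp4 (log2 0.44, adjusted p = 0.0077) and Igfbp2 (1.92, adjusted p = 0.0103, at 5 to 9 counts in TAC WT libraries and 9 to 54 in TAC KO libraries) rose. The ligand gene Igf1 (-0.21, adjusted p = 0.288) did not pass. Igfbp3 and Igfbp5, whose proteins join the acid-labile subunit in ternary complexes, did not pass either (-0.30, adjusted p = 0.126, and 0.07, adjusted p = 0.809).

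Scd4 lies beside its paralogs on chromosome 19. Scd1 was at 15.7 CPM in TAC KO, against 19.4 in TAC WT and 14.5 in Sham WT, and its log2 difference in TAC KO against TAC WT was -0.31 (edgeR adjusted p = 0.0586). Scd2 was at 27.2, 28.7 and 26.2 CPM in the same order (log2 -0.08, adjusted p = 0.65), and Scd3 never exceeded 8 counts in a library. Scd4 was thus the member of its cluster with the large group difference. Scd1 to Scd3 match its transcript at about 87.0% identity over at most 28.9% of the length. Of 16 tested genes of fatty acid desaturation and synthesis, 3 rose and 2 fell, shares near the 15.7% and 17.3% over all tested genes. Among them were the elongase Elovl5 (-0.31, adjusted p = 0.00893), the carboxylase Acacb (0.52, adjusted p = 0.0108) and the sterol sensor Scap (0.26, adjusted p = 0.0128). The elongase Elovl6 fell (-0.75, adjusted p = 0.0182), but its adjusted p was 0.0512 without TAC KO 1, 0.0595 without TAC WT 1, 0.054 without TAC WT 4 and 0.0631 once GC and length trends were taken out.

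The partners that cubilin needs at the kidney and gut surface, amnionless (Amn) and megalin (Lrp2), never exceeded 6 and 5 counts in a library. Of 13 tested genes of the cubilin receptor and vitamin B12 handling, 4 rose and none fell, beside 15.7% and 17.3% of all tested genes. The plasma B12 carrier gene Tcn2 rose from 39.3 to 61.0 CPM (log2 0.64, edgeR adjusted p = 0.00138). Its receptor gene Cd320 rose by 0.36 (adjusted p = 0.00469) and the receptor chaperone gene Lrpap1 by 0.28 (adjusted p = 0.00177). Mmadhc rose by 0.19 (adjusted p = 0.0383), a call lost in 11 of 21 alternatives, where its adjusted p reached 0.134 without TAC KO 4. In this list the receptor partners were near 0 while the carriers and chaperone were present in all groups.

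Of the other alcohol dehydrogenase genes, Adh4 had 0 counts throughout, Adh7 at most 4, and Adh5, a ubiquitous class III enzyme 152 kb from Adh1, rose from 70.4 ± 4.97 to 82.2 ± 4.62 CPM (SD, n = 4; log2 0.22, edgeR adjusted p = 0.0192). Adh5 missed the threshold without TAC KO 2 (adjusted p = 0.0548), TAC KO 4 (0.0522), TAC WT 1 (0.0552) or TAC WT 4 (0.0528). Of 16 tested genes of alcohol and retinoid metabolism, 3 rose and none fell, a share of risen genes near the 15.7% over all tested genes. The others were the aldehyde dehydrogenase Aldh2 (0.27, adjusted p = 0.00242) and the retinal reductase Dhrs3 (0.35, adjusted p = 0.0208). Dhrs3 no longer passed without TAC KO 2 (adjusted p = 0.0626), without TAC WT 4 (0.06) or with GC and length trends removed (0.0998).

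For Cngb3, the cone partner gene Cnga3 was at 3.48 CPM in TAC KO, against 3.69 in TAC WT and 5.24 in Sham WT, with no call in TAC KO against TAC WT (log2 -0.10, edgeR adjusted p = 0.77). Cngb1 was at -0.15 (adjusted p = 0.628), and Cnga1 never exceeded 1 count. In the same list Hcn4, a pacemaker channel gene, rose from 6.88 to 10.3 CPM (log2 0.58, adjusted p = 0.0221). Hcn4 missed the threshold when TAC KO 1 was left out (adjusted p = 0.0638), likewise for TAC KO 3 (0.0571), TAC WT 3 (0.0636) and TAC WT 4 (0.061), and under limma voom (0.0754).

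Of the genes listed with Arhgef19, those with the smallest p fell. The kinase genes Rock1 and Rock2 fell from 112.7 to 65.1 CPM and from 197.3 to 123.3 CPM (log2 -0.79, edgeR adjusted p = 1.45e-05, and -0.68, adjusted p = 1.429e-04). Arhgef12 fell by 0.52 (adjusted p = 2.606e-04) and Arhgef5 by 0.33 (adjusted p = 9.154e-04). Arhgef15, an endothelial exchange factor, fell by 0.30 (adjusted p = 0.0137), and Arhgef16 did not pass (log2 0.20, adjusted p = 0.635). Among 11 tested SOX genes, Sox9 fell from 10.03 to 4.60 CPM (log2 -1.12, adjusted p = 1.969e-04) and Sox12 rose from 13.4 to 22.4 CPM (0.74, adjusted p = 7.027e-04). Sox17 did not pass (-0.20, adjusted p = 0.158).

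**Figure D4:**
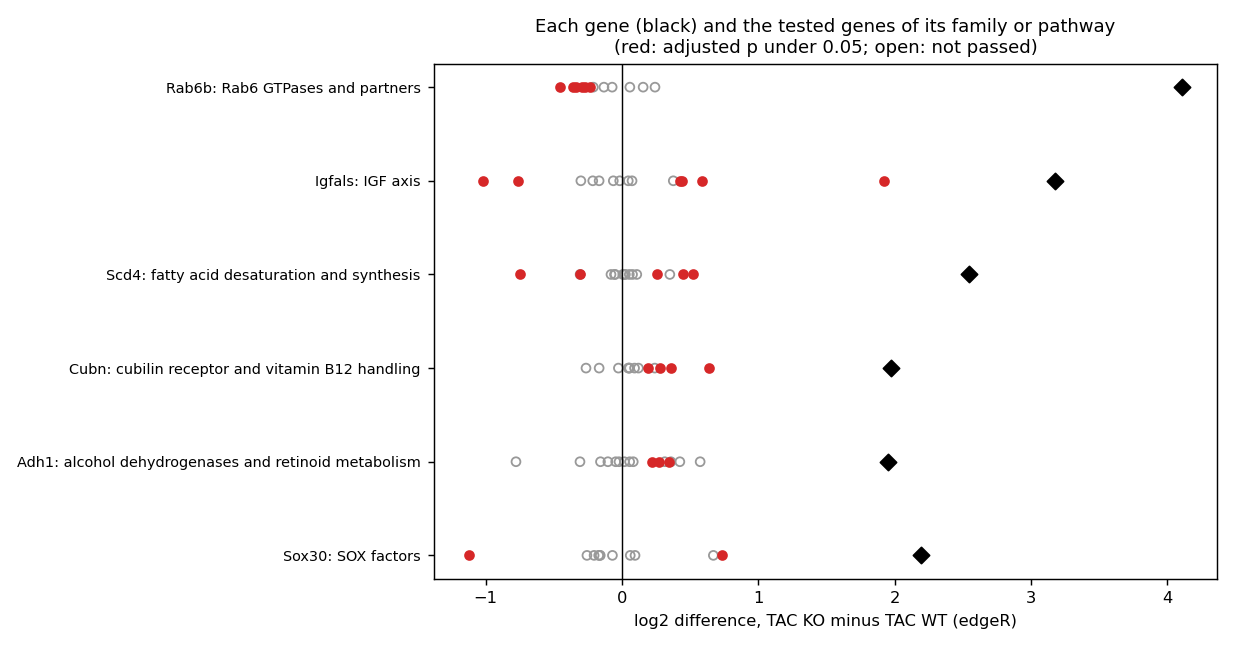
Fitted log2 difference in TAC KO against TAC WT (horizontal axis) of 6 members (black diamonds) and of the tested genes of each one's family or pathway, in red where the adjusted p is under 0.05 and open otherwise. Each diamond lies to the right of the other genes in its row, and the Rab6 row leans to the left of 0, with a median of -0.22.

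The 10 genes lie on 8 chromosomes, with 3 of them on chromosome 4, where Arhgef19 and E330017L17Rik are 11.3 Mb apart. Only Cubn shares chromosome 2 with Nron, at a distance of 20.3 Mb. Of 168 tested genes within 500 kb of a member, 40 were higher and 15 lower in TAC KO than in TAC WT, that is 23.8% and 8.93%, beside 15.7% and 17.3% of all tested genes. Their median log2 difference was 0.07, and 7 of them (4.17%) were more than 2-fold higher or lower, beside 3.34% of all tested genes. Within 2 Mb, 89 of 388 genes were higher and 42 lower. The neighbours were richer in GC, with a median of 51.8% against 49.6% for all tested genes, and with GC and length trends removed 33 were higher and 13 lower.

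Next to Arhgef19, 10 of 23 neighbours were higher and 3 lower. Among them, Ddi2 fell from 47.1 to 31.8 CPM (log2 -0.57, edgeR adjusted p = 2.7e-05). Next to E330017L17Rik, 8 of 25 were higher and 3 lower, with Ccdc28b at 0.94 (adjusted p = 9.6e-05) and Txlna at -0.37 (adjusted p = 4.61e-04). Around Igfals, 11 of 45 were higher and 1 was lower, among them the heart and muscle ribosomal protein gene Rpl3l (0.65, adjusted p = 1.32e-04) and the fatty acid oxidation gene Eci1 (0.50, adjusted p = 1.8e-04). These 3 regions held most of the neighbours that were higher, and also most of the 168 neighbours tested.

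Near Adh1, 4 of 14 genes were higher and 3 lower, with Dnajb14 at -0.55 (edgeR adjusted p = 5.9e-04) and H2afz at 0.42 (adjusted p = 8.77e-04). Near Gm15446, Golga3 fell by 0.29 (adjusted p = 0.0021) and Fbrsl1 rose by 0.29 (adjusted p = 0.00914). Near Scd4, Chuk fell by 0.44 (adjusted p = 0.00217) and Ndufb8 rose by 0.31 (adjusted p = 0.00248). Near Cubn, Rsu1, which lies 4.9 kb away, rose by 0.24 (adjusted p = 0.00862) and St8sia6 fell by 0.45 (adjusted p = 0.0123). Once GC and length trends were taken out, Golga3 (-0.09, adjusted p = 0.159) and St8sia6 (-0.16, adjusted p = 0.381) did not pass. Near Rab6b, 2 of 12 genes were lower, Cdv3 (-0.43, adjusted p = 0.00329) and Ryk (-0.18, adjusted p = 0.0498, a call lost in 18 of 21 alternatives). Near Sox30 the antisense gene Gm12167 (0.69, adjusted p = 0.00249) was the only call among 9, and none of 4 genes near Cngb3 passed.

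**Figure D5:**
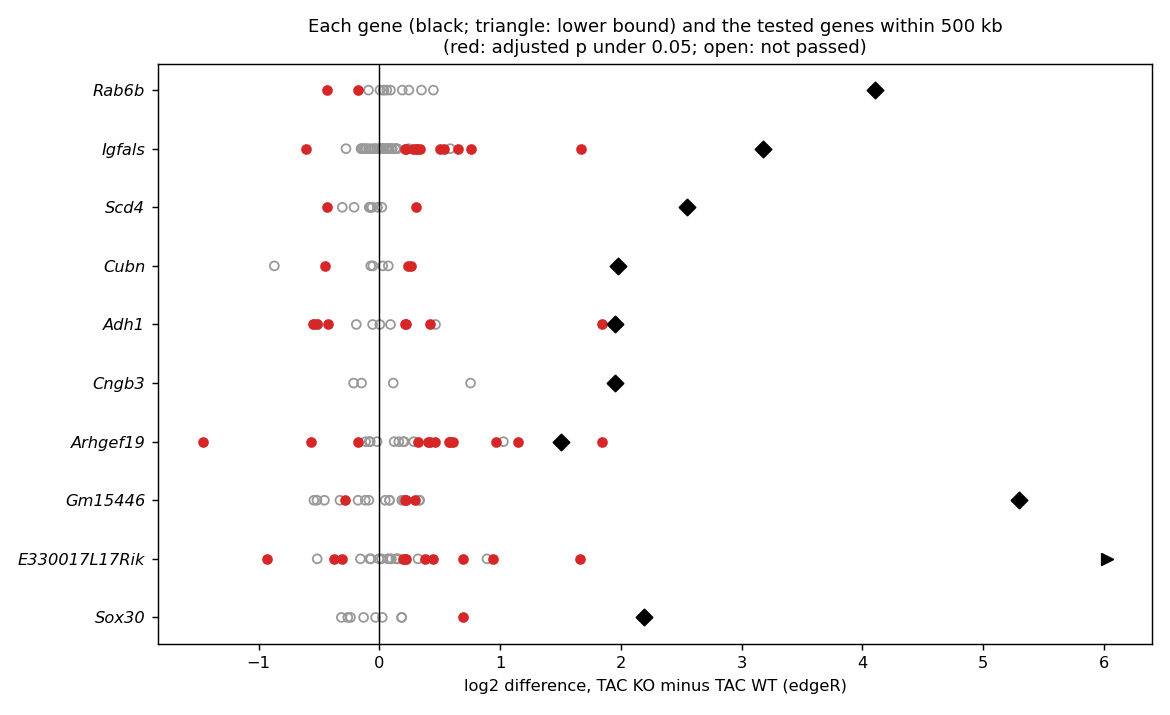
Fitted log2 difference in TAC KO against TAC WT (horizontal axis) of each of the 10 genes (black diamonds, triangle for a lower bound) and of the tested genes within 500 kb of it, in red where the adjusted p is under 0.05 and open otherwise. All 10 genes but Arhgef19 lie to the right of every tested gene beside them.

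Along chromosome 2, 18.9% of 132 tested genes within 5 Mb of Nron were higher and 15.2% lower in TAC KO than in TAC WT. Between 5 and 10 Mb, 19.6% of 97 were higher and 10.3% lower, and between 10 and 25 Mb, where Cubn lies, 11.6% of 95 were higher and 26.3% lower. Beyond 25 Mb the shares were 15.2% and 18.9% of 863 genes.

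A knockout line and its wild-type controls can differ in strain background, and genes beside or far from the targeted locus can then differ in level without regard to the deletion. The labels name no strain. Of 12 fixed genes known to differ between laboratory mouse strains, 6 were tested, and 3 were higher and 1 lower in TAC KO than in TAC WT, beside 15.7% and 17.3% of all tested genes. The list was chosen with earlier results of these data known, so its share of calls is a description only. Tnni3k, whose level is known to differ strongly between strains, spanned 92.9 to 118.8 CPM in TAC KO and 14.99 to 24.92 CPM in the wild-type libraries (log2 2.66, SE 0.10, edgeR adjusted p = 1.604e-09). All 4 knockout libraries lay above all 8 wild-type libraries, a separation that 5.93% of tested genes showed.

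Ide, the insulin-degrading enzyme gene, was at 14.8 to 20.5 CPM in the wild-type libraries and 31.2 to 45.6 in TAC KO (log2 1.06, edgeR adjusted p = 3.903e-05). Wdfy1 was at 41.6 to 57.0 CPM in TAC WT, against 8.21 to 34.3 in TAC KO (-1.10, adjusted p = 0.00659), and Glo1 rose by 0.20 (adjusted p = 0.018; 0.0571 without TAC WT 1). Nnt, which is partly deleted in some C57BL/6 substrains, was at 1.29 to 2.12 CPM in all 12 libraries, with no call in TAC KO against TAC WT (0.18, adjusted p = 0.356), and Disc1 did not pass (-0.17, adjusted p = 0.486). Wdfy1 in Sham WT, at 30.6 to 34.6 CPM, overlapped TAC KO. The list therefore held both genes that differed between TAC KO and TAC WT and genes that gave no call. Whether any of the 10 genes differs by strain and not by Nron cannot be told apart in these 3 groups. The knockout libraries share 1 label that names no line or strain, and no sham knockout was analysed here.

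Several members are known from other organs, and markers of those organs were low. Kidney proximal tubule markers summed to at most 0.482 CPM in any library, with Slc34a1, Slc22a6 and Umod at 0. Testis germ cell markers summed to at most 0.847 CPM, with 6 of 7 at 0. Hepatocyte markers summed to 3.15 to 6.80 CPM in TAC KO and to 2.38 to 3.82 CPM in the wild-type libraries, Serpina1a was at 0, and albumin (Alb) never exceeded 1 count. Photoreceptor markers summed to 2.88 to 4.60 CPM in TAC KO and to 2.46 to 6.45 CPM in wild type, most of it Cnga3. Neuron markers summed to 10.2 to 14.7 CPM in TAC KO and to 10.9 to 16.7 CPM in wild type, with Syt1 at 0. No tested gene of these lists passed in TAC KO against TAC WT, and few could be tested (4 of 8 for hepatocytes, 0 of 7 for kidney tubule, 1 of 7 each for testis and photoreceptors, 2 of 6 for neurons).

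Some resident cell markers were called in TAC KO against TAC WT, where 15.7% of all tested genes passed as higher and 17.3% as lower. A single call in a list this short is near those shares. Of 4 macrophage markers 3 were higher, and their sum was 57.9 to 84.9 CPM in TAC WT, against 92.1 to 120.0 in TAC KO. The fibroblast list summed to 589 to 769 CPM in TAC WT, against 653 to 922 in TAC KO, with 1 of 5 genes higher, and the endothelial list to 933 to 1165 and 809 to 936 CPM, with 1 of 4 lower. Of 8 cardiomyocyte markers 2 were higher and none lower, and of 5 smooth muscle and pericyte markers 1 was higher and 1 lower. The adipocyte list summed to 0.998 to 6.94 CPM in TAC KO, 0.770 to 1.89 in TAC WT and 0.403 to 3.67 in Sham WT. Only 1 of its 5 genes was tested, without a call. None of these lists had a marker at 0 throughout. The part of cell makeup in the levels of the 10 genes was not tested.

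The knockout libraries also leaned to GC-rich and to short genes. The fifth of tested genes with the highest GC content stood above the fifth with the lowest by 0.104 to 0.436 on the log2 scale in the TAC KO libraries, as deviations from the mean of all libraries, and by -0.151 to -0.043 in the wild-type libraries. TAC KO 1 had the highest value. By length, the fifth with the longest genes stood against the fifth with the shortest at -0.26 to -0.151 in TAC KO and at -0.037 to 0.193 in wild type. The exons of the 10 genes ranged in GC content from 39.9% for Cngb3 to 61.0% for Arhgef19. With trends in GC content and length removed, the log2 difference from TAC WT was 1.39 in place of 1.5 for Arhgef19. It was 3.02 in place of 3.18 for Igfals, 2.20 in place of 1.98 for Cubn and 2.21 in place of 1.95 for Cngb3. No member changed direction, which the choice of the genes favoured.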

How the data were processed

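The deposited values were raw counts, whole numbers per gene with 1 file per library. The submitters' processing notes name featureCounts 1.6.4, STAR, DESeq2, StringTie 1.3.5, bcl2fastq, Trim Galore 0.5.0, MultiQC 1.7, FastQC 0.11.8 and the build GRCm38. Libraries were directional, per the labels' protocols. What each tool did, how strand was counted and which annotation release was used is not given in the sources used here, so reads of antisense partners may be mixed. Identifiers were matched without version to GENCODE M21 (54079 of 54146 records, 67 without a symbol).

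Counts of all 12 libraries entered 1 fit in R 4.3.3 with edgeR 4.0.16 (quasi-likelihood F-test, TMM scaling, filterByExpr, Benjamini-Hochberg adjustment over 15477 tested genes, calls at 0.05). Replicates were numbered in accession order. The common coefficient of biological variation was 0.113, and the fit was tested on simulated data. A count of 0 was given a limit of 3 counts, and counting intervals are exact at 95% and cover counting error only, since reads carry no molecular identifiers.

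The 10 genes and all gene lists were chosen with earlier results of these data known. The naming rule took all members, fixed relatives, up to 4 called genes of each list and up to 2 called neighbours within 500 kb by smallest p, the tested strain genes, and the 3 genes most correlated in log2(CPM + 0.5), of which the first or those discussed are printed. Some genes that the rule takes are not reported here. Similar transcripts were searched with minimap2 2.31-r1302.

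Alternatives were DESeq2 1.42.0, no low-count filter, 1 CPM in 4 libraries, the 2 compared groups alone, scaling by RLE or by the upper quartile, quality-weighted voom in limma 3.58.1, 1 surrogate variable (sva 3.50.0), removal of GC and length trends (splines with 5 degrees of freedom), each library left out, and a 2 Mb window.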

Additional observations from a re-analysis of the deposited data

Results flagged for a closer look

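Among 28 sets of 4 libraries of a group with differing values, 6 held a library whose gap to the nearest other exceeded Dixon's 95% critical value. Chance flags about 1 in 20 such sets. Igfals was at 0.892 CPM in Sham WT 1 against 1.92 to 1.98 in the other Sham WT libraries, and at 0.257 CPM in TAC WT 4 against 1.004 to 1.139 in the rest of that group. Adh1 was at 5.36 CPM in TAC WT 2 against 3.16 to 3.53. Gm15446 was at 0.109 CPM in TAC WT 1, from 4 counts, against 0.0295 to 0.0367, from 1 count each. Sox30 was at 0.367 CPM in TAC WT 4 against 0.0886 to 0.109, and at 0.513 CPM in TAC KO 3 against 0.790 to 0.804. Only this last flag lies in a knockout library.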

How the results depend on the processing

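In TAC WT against Sham WT, 3 of the 10 genes passed, and 5 passed with no low-count filter (1 higher, 4 lower). With a library left out, 2 to 4 passed. Gm15446, at -0.19 and not called, turned positive with limma voom (0.38), without Sham WT 4 (0.44) and without TAC WT 3 (0.013). With a library left out Gm15446 went down to -0.86 (without TAC WT 1) and Sox30 to -0.83 (without TAC WT 4). Sox30, at -0.17 and not called, turned positive without Sham WT 1 (0.026), without TAC WT 2 (0.014) and without TAC WT 3 (0.033). The cause was not tested. No member changed direction in TAC KO against either wild-type group under any of the alternatives run. The genes were chosen for that direction in these same libraries, so this is a description and not a check. The wider window of 2 Mb gave 131 called neighbours (89 higher, 42 lower) in place of 55, since it tests more genes. With each library left out the 55 became 46 to 58. All counts of called related and strain genes stayed within 1.5 times of the main count. Of 55 called neighbours, 32 kept their call under all alternatives, and of 38 called related genes in TAC KO against TAC WT, 23 did. Bicd1, not otherwise named, turned positive in 1 alternative. No paired analysis was possible because the labels give no replicate numbers. Depth limits Sox30, Gm15446 and E330017L17Rik, at 18 to 105 counts in the knockout libraries and at most 10 in wild type.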

Other observations

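Of the 115 tested relatives of the 10 genes, 20 were higher and 10 lower in TAC WT than in Sham WT, beside 9.67% and 10% of all tested genes, and 20 of these 30 calls held under every alternative. The genes named here were chosen after their values were seen. Sox9, a SOX factor of fibroblasts and cartilage, rose from 3.47 ± 0.305 to 10.03 ± 1.86 CPM (SD, n = 4; log2 1.53, edgeR adjusted p = 2.7e-05), and the retinaldehyde dehydrogenase Aldh1a2 from 6.01 to 25.7 CPM, with TAC WT libraries between 10.99 and 45.9 CPM (2.09, adjusted p = 0.00339). Igf1 rose from 10.2 to 16.5 CPM (0.69, edgeR adjusted p = 0.00526). The growth hormone receptor gene Ghr fell from 143.9 to 101.9 CPM (-0.50, adjusted p = 1.85e-04) and Aldh2 fell from 319 to 231 CPM (-0.46, adjusted p = 7.7e-05).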
